A study of Ovis aries with 2 samples.

Results

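Fibroblasts of the sheep carotid artery that held few or no transcripts of PTX3 and CCL26 were described in 1 library of single cells. They were chosen by their own UMI counts (unique molecular identifiers, each standing for 1 captured transcript). A barcode of the native library counted as a fibroblast when it had at least 1000 UMIs and at most 20% of them from 13 mitochondrial genes. Its summed UMIs of PI16, SFRP2, SFRP4, MFAP5 and SERPINF1 also had to reach 3 and be at least 2 times the summed markers of endothelial cells, of smooth muscle cells, of macrophages and of T cells. Of 6810 native barcodes that passed the first limits, 850 were fibroblasts, and 411 of these had fewer than 2 UMIs of PTX3 and CCL26 together. These 411 cells, called low fibroblasts here, made 6.04% of the passing barcodes (exact 95% interval 5.48 to 6.63) out of 11371 native barcodes and 12600 in both libraries. The other 439 fibroblasts, with 2 or more such UMIs, are called fibroblasts with PTX3 and CCL26.

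The study compared a native carotid artery with a vascular graft free of cells at the start (labelled H2R5-ATEV), explanted from sheep after 12 weeks. Each tissue gave 1 library from animals of 1 to 2 years, and the number of animals, their sex and their strain are not given in the labels. The native sample is titled an aorta, but its source and tissue are given as carotid artery. Cells were freed from trimmed vessels by enzymes perfused into the lumen for 20 minutes, red blood cells were lysed, and about 10000 cells were aimed at per capture. All groups described below therefore come from adult sheep vessels digested alike, and no group has a replicate library.

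Fibroblasts of the adventitia, the outer coat of an artery, make its collagens, proteoglycans and microfibrils, and shape local growth factor and immune signals. In mouse and human atlases, PI16 marks fibroblasts found around vessels in many organs, often together with DPP4, CD34 and DPT. PTX3 encodes a secreted long pentraxin of innate immunity, and CCL26 encodes eotaxin-3, a chemokine that acts through the receptor CCR3 in humans.

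The low fibroblasts held 2692767 UMIs with a median of 3712 per cell (1000 to 34081), and the fibroblasts with PTX3 and CCL26 held 5083425 with a median of 10982 (1013 to 53350). Median mitochondrial shares were 1.82% in low fibroblasts and 1.73% in the others. Levels below are UMIs summed over a group and scaled to a total of 1000000 (CPM), so a cell of many UMIs weighs more. Intervals are exact at 95% and cover counting error only. Since the groups were cut from measured values within 1 library, no test was made between them, and every difference is a description of these cells. The native and graft libraries shared 7 barcodes, of which 0 were low fibroblasts.

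Markers that the rule used were found as it required, and KERA and CHRDL1, which it did not use, were checked beside them. With every cell thinned at random to 1000 UMIs, PI16, a peptidase inhibitor, was detected in 64.2% of low fibroblasts, 54.9% of fibroblasts with PTX3 and CCL26 and 2.64% of endothelial cells. MFAP5, a microfibril component, was detected in 75.9% of low fibroblasts, 69.2% of the other fibroblasts and 5.76% of endothelial cells. KERA, the corneal proteoglycan keratocan, was detected in 40.6% of low fibroblasts, 56.7% of the other fibroblasts and 4.24% of endothelial cells. CHRDL1, a secreted BMP antagonist, gave 39.4%, against 50.8% of the other fibroblasts and 1.66% of endothelial cells. At least 3 of the 6 markers PI16, SFRP2, SFRP4, MFAP5, KERA and CHRDL1 were present in 72.7% of low fibroblasts (68.2 to 77.0), against 72.9% of the other fibroblasts and 0.401% of endothelial cells. Endothelial cells, like the other classes here, were cut by the same rule on their own markers. Their marker sum had to reach 3 and be at least 2 times each other sum, the fibroblast sum included. Their low shares of PI16, SFRP2, SFRP4 and MFAP5 are thus partly set by that choice and do not measure free RNA.

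Pan-fibroblast genes were at high levels in the low fibroblasts, as the class name requires. DCN (decorin) reached 10140.5 CPM in low fibroblasts, against 155 CPM in endothelial cells and 561 CPM in smooth muscle cells. COL1A2 reached 12489 CPM in low fibroblasts and 212 CPM in endothelial cells. ACTA2, the actin of smooth muscle and of myofibroblasts, stood at 4.83 CPM in low fibroblasts and 3906 CPM in smooth muscle cells. It is a smooth muscle marker of the rule, so the choice of cells sets this gap and it supports nothing. CD34 was at 318 CPM in low fibroblasts and 337 CPM in endothelial cells. DPT (dermatopontin) was at 346 CPM in low fibroblasts and 1143 CPM in smooth muscle cells, so neither gene was highest in low fibroblasts. DPP4 gave 2 UMIs in all low fibroblasts together. The tendon gene TNMD gave 0 UMIs, which a floor of 3 counts over the group puts under 1.11 CPM in low fibroblasts.

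How many fibroblasts counted as low followed the depth of the cell. Of fibroblasts with 1000 to 1499 UMIs, 84.4% were low (77.5 to 89.8, 124 of 147), and the share declined through each deeper class to 32.2% at 10000 or more UMIs (27.4 to 37.2, 119 of 370). The rule is a count of UMIs, so a shallow cell passes it with a higher level of PTX3 and CCL26 than a deep one. When the 555 fibroblasts of at least 5000 UMIs were each thinned to 5000 UMIs, 72 of 360 cells with PTX3 and CCL26 had fewer than 2 UMIs left. After thinning to 1000 UMIs this happened to 291 of 439. Comparisons of all cells are therefore set beside the same comparison among cells of at least 5000 UMIs thinned to 5000, which left 195 low fibroblasts and 360 with PTX3 and CCL26. This second comparison was chosen after the data were seen.

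**Figure D1:**
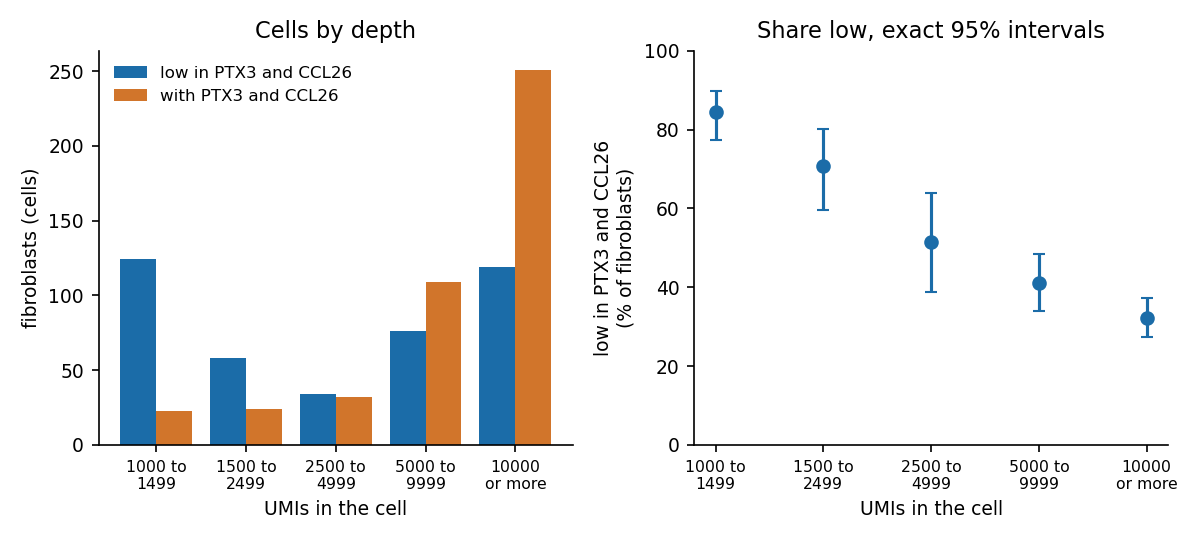
Fibroblasts of the native artery by their UMIs per cell (x axis). Bars give the number of cells low in, and with, PTX3 and CCL26, and points give the percentage of fibroblasts that were low with exact 95% intervals; it lies at 84.4% in the shallowest class and 32.2% in the deepest.

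The split between the groups came mostly from CCL26. In low fibroblasts, 295 cells had 0 UMIs of both genes and 116 had 1 UMI. CCL26 stood at 30.1 CPM in low fibroblasts (19.7% of cells with a UMI), 986 CPM in fibroblasts with PTX3 and CCL26 (91.1% of cells) and 66.5 CPM in endothelial cells (19.3% of cells at a median of 3409 UMIs). PTX3 stood at 12.998 CPM in low fibroblasts, 153 CPM in the other fibroblasts and 11.3 CPM in endothelial cells. In the other classes CCL26 stood at 10.7 CPM in macrophages, 7.11 CPM in T or NK cells and 1.78 CPM in smooth muscle cells. The low level in low fibroblasts is what the rule asks for and supports nothing. Just inside the limit, the 116 cells with 1 UMI had 3262 CPM of FBN1 and 2313 CPM of PTGDS. Just outside it, the 67 cells with 2 UMIs had 3662 CPM of FBN1 and 2657 CPM of PTGDS, at median depths of 2729 UMIs inside and 6491 UMIs outside. KERA stood at 1079.6 CPM inside and 1659.8 CPM outside, and the part of depth in these values was not tested.

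Few genes separated low fibroblasts from those with PTX3 and CCL26. Of 9473 genes with at least 30 UMIs over both groups and 10 CPM in one, 76 were at least 2-fold higher in low fibroblasts (0.802%) and 37 were at least 2-fold lower (0.391%), after adding 5 CPM to both levels. Both counts include genes of the rule, with CLDN5 and C1QA among the 76 and PTX3 and CCL26 among the 37. The median log2 ratio of all 9473 genes was 0.02. The 12 highest and 12 lowest genes described next had at least 50 CPM in the higher group and were not of the rule. Among the 12 highest were secreted and membrane proteins of signalling and matrix remodelling.

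ECM1, a secreted glycoprotein of the matrix, had the highest log2 ratio of these, with 124 CPM in low fibroblasts and 30.9 CPM in the others, a ratio of 4.03 (3.32 to 4.90). IGFBP5, which binds insulin-like growth factors and matrix, was the most abundant gene among the 12 highest, at 2638 CPM in low fibroblasts and 1091 CPM in the others, a ratio of 2.42 (2.33 to 2.50). It was detected in 55.2% of thinned low fibroblasts and 35.1% of the others. Secreted or membrane-bound metalloproteinases made up 3 of the 12. ADAMTS16 had 68.7 CPM in low fibroblasts and 18.3 CPM in the others, ADAMTS19 had 104 and 41.5 CPM in the same order, and MMP16 had 231 and 99.7 CPM. BMP7, a bone morphogenetic protein, stood at 52.0 CPM in low fibroblasts and 14.4 CPM in the others. NTN4, a netrin that binds laminins, stood at 110 CPM in low fibroblasts and 38.6 CPM in the others. ALOX15, a lipoxygenase of fatty acids, had 72.0 CPM in low fibroblasts and 21.4 CPM in the others. RGS6, which speeds the switch-off of G proteins, had 111 CPM in low fibroblasts and 31.5 CPM in the others. DACT2, a regulator of WNT and TGF-beta signalling, NCKAP5 and C17orf58 completed the 12, with ratios of 2.61, 3.12 and 2.35. All 12 remained on the higher side among deep cells, with log2 ratios between 1.13 for DACT2 and 2.02 for RGS6.

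On the lower side stood complement genes, a prostaglandin synthase and a cytokine receptor. PTGDS, which makes prostaglandin D2, had 1599 CPM in low fibroblasts and 4440.3 CPM in the others, 2.78-fold lower (2.69 to 2.87). It was detected in 55.0% of thinned low fibroblasts and 83.4% of the others. C2, a complement protease, was 2.98-fold lower at 54.2 CPM in low fibroblasts and 162 CPM in the others. CFB, complement factor B, was 2.35-fold lower at 44.9 CPM in low fibroblasts and 106 CPM in the others. SMOC1, a calcium-binding matrix protein that can inhibit BMP signals, had 17.1 CPM in low fibroblasts and 57.4 CPM in the others. CYP4B1, a cytochrome P450, had 30.5 CPM in low fibroblasts and 91.7 CPM in the others. ANGPT4, an angiopoietin that binds the receptor TIE2, had 34.5 CPM in low fibroblasts and 89.5 CPM in the others. CPE, a carboxypeptidase of prohormones, had 197 CPM in low fibroblasts and 423 CPM in the others. Among deep cells CPE and SLC25A21, a mitochondrial carrier, did not reach 2-fold, with log2 ratios of -0.76 and -0.62.

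IL1RL1, the receptor of interleukin-33, had the lowest ratio of the 12, with 10 UMIs in low fibroblasts and 274 in the others. Only 19 of the 439 cells with PTX3 and CCL26 held any of them, and 3 cells held 77.7% of the 274. The remaining 3 of the 12 lowest were SLC16A14 of the monocarboxylate transporter family, NTM, a neural adhesion protein, and CCDC146. SLC16A14 was 2.23-fold lower, while NTM and CCDC146 did not reach 2-fold after adding 5 CPM, with log2 ratios of -0.94 each, and -0.93 and -0.82 in deep cells.

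**Figure D2:**
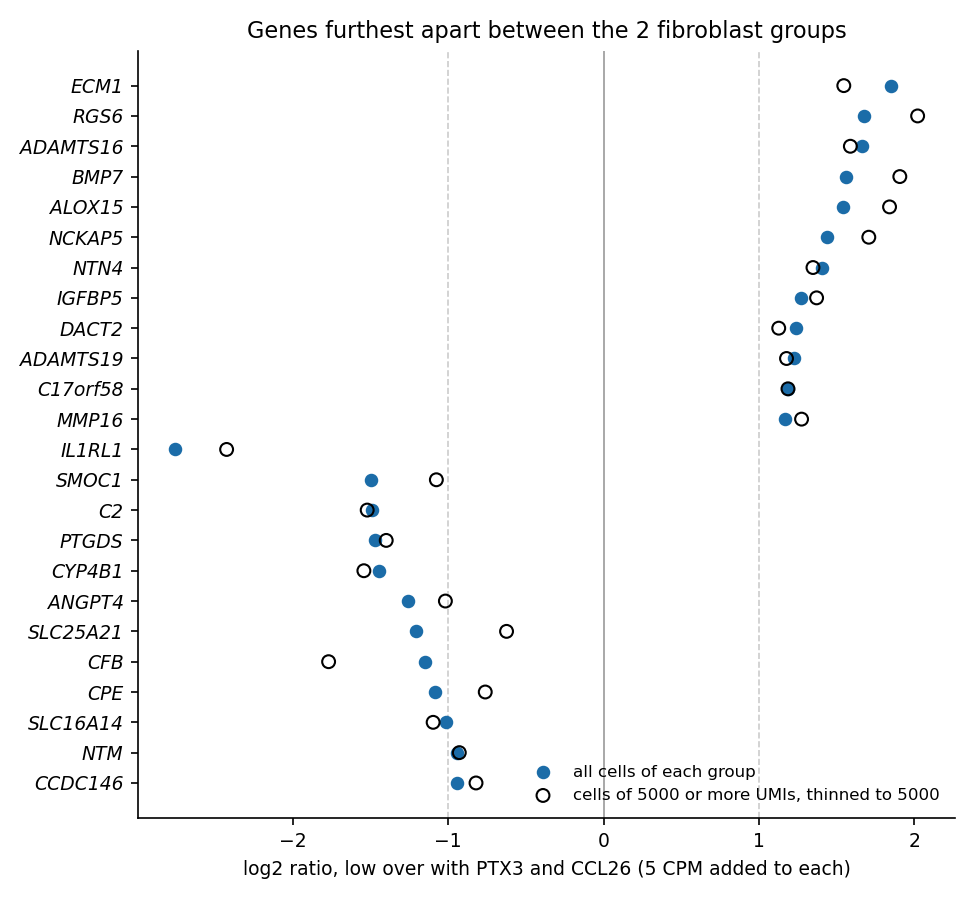
Log2 ratios of the 12 genes highest and the 12 lowest in fibroblasts low in PTX3 and CCL26 relative to those with them (5 CPM added to each level). Filled points use all 411 and 439 cells and open points the 195 and 360 cells of at least 5000 UMIs thinned to 5000; NTM and CCDC146 lie inside the dashed 2-fold lines in both, and SLC25A21 and CPE in the deep cells alone.

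The calls over all cells and in deep cells shared part of their genes. In deep cells 0.801% of 8866 genes were called higher and 0.632% lower. Of the 76 genes called higher, 30 (39.5%) were among the 71 called higher in deep cells, of which they made 42.3%. Of the 37 called lower, 27 (73.0%) were among the 56 called lower in deep cells, of which they made 48.2%. CD74 and CLDN5 were higher in low fibroblasts over all cells, at 225 and 23.8 CPM, against 94.0 and 6.49 CPM in the others, but had log2 ratios of -0.0455 and -0.0596 in deep cells.

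Both genes belong to other cell types, and their transcripts sat mainly in shallow low fibroblasts. The endothelial list (11 genes measured) summed to 1439 CPM in low fibroblasts of 1000 to 1499 UMIs and 83.9 CPM in those of 10000 or more. The macrophage list (9 genes) summed to 2316 CPM in the shallowest of these cells and 108 CPM in the deepest. Fibroblasts with PTX3 and CCL26 had endothelial sums of 1024 and 103 CPM and macrophage sums of 1377 and 110.2 CPM in the same depth classes. How far this RNA of other cells entered the ratios was not tested beyond the comparison of deep cells. DCN and FBN1 went the other way within the low fibroblasts, with DCN at 6072 CPM in the shallowest class and 10205 CPM in the deepest, and FBN1 at 1433 and 4954 CPM. DPT (395 and 363 CPM), PTGDS (1814 and 1387 CPM) and IGF2 (1145 and 973 CPM) were lower in the deepest class than in the shallowest. Between these classes the course was not steady. At 5000 to 10000 UMIs, PTGDS stood at 2128 CPM, IGF2 at 1215 CPM, DPT at 283 CPM and DCN at 11676 CPM. The smallest marker sums carried the weakest fibroblast signal. The 21 low fibroblasts with a marker sum of exactly 3 had 2062 CPM of DCN, and 25 barcodes with a sum of 2 that otherwise met the rule had 914 CPM.

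Lists of the shared equipment of fibroblasts are given beside all genes tested, of which 0.802% were called higher and 0.391% lower. With so few calls over all genes, 0 calls in a short list say little. Of 17 pan-fibroblast genes and 15 fibrillar or associated collagens tested, 0 were 2-fold higher and 0 lower in low fibroblasts, with a median log2 ratio of -0.02 for each list. COL1A1 stood at 6880 CPM in low fibroblasts and 6209 CPM in the others, and COL3A1 at 8641 and 7470.2 CPM. Small leucine-rich proteoglycans, which coat and space collagen fibrils, gave 0 calls among 10 genes and a median of -0.17. DCN had 10140.5 CPM in low fibroblasts and 14099 CPM in the others, and KERA had 976 and 1749.6 CPM, a log2 ratio of -0.84. LUM (lumican) was nearly level, at 1684 CPM in low fibroblasts and 1639 CPM in the others. Of 16 elastic fibre genes, 0 were called in either direction, although FBN1 (fibrillin-1) stood at 4201 CPM in low fibroblasts and 2386 CPM in the others, 1.76-fold higher (1.72 to 1.81).

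Lists for adventitial identity and growth factors are likewise set beside the 0.802% of all genes called higher and 0.391% lower. Of 12 universal adventitial fibroblast genes tested, 1 was called higher and 0 lower, with a median log2 ratio of 0.53 beside 0.02 over all genes. CLEC3B (tetranectin) had 6025 CPM in low fibroblasts and 4107 CPM in the others, SEMA3C, a secreted semaphorin, had 2442 and 1617 CPM, and MFAP5 had 2322 and 1627 CPM. The called gene was DPT, at 346 CPM in low fibroblasts and 156 CPM in the others. The list holds genes of the rule, PI16 and MFAP5, and its direction is no independent evidence. In the BMP and TGF-beta list 2 of 22 genes were called higher, BMP4 at 29.3 CPM in low fibroblasts and 11.8 CPM in the others, and BMP6 at 54.6 and 24.0 CPM. BMP6 reached 1136 CPM in endothelial cells, whose transcripts were most frequent in shallow low fibroblasts, and neither was called in deep cells. The list's median was -0.14. In the WNT list, with a median of 0.03, 1 of 15 was called, WNT2, with 69.4 CPM in low fibroblasts and 31.1 CPM in the others. Of 20 genes of the insulin-like and other growth factor list, IGFBP5 and PDGFC were called higher and 0 lower, with a median of -0.21, and in deep cells IGFBP5 alone was called. IGF2, a growth factor of that list, ran the other way without reaching 2-fold, at 1024 CPM in low fibroblasts and 1883 CPM in the others.

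Few calls came from the immune lists, set beside 0.802% of all genes called higher and 0.391% lower. In the complement list, C2 and CFB were 2-fold lower among 7 genes tested and 0 were higher, with a median of -0.43. The initiating proteases C1R and C1S, the most abundant of the list, had 947 and 696 CPM in low fibroblasts, against 1068 and 908 CPM in the others. Of 15 chemokines and cytokines, 3 were lower, and these were PTX3 and CCL26 of the rule itself and IL1RL1. In fibroblasts with PTX3 and CCL26, 3 cells held 77.7% of the IL1RL1 UMIs. CXCL12 had 335 CPM in low fibroblasts and 442 CPM in the others, and IL33 had 264 and 250.0 CPM. The NF-kB list (18 genes), the interferon list (12 genes) and the immediate early and heat shock list (24 genes) each gave 0 calls, with medians of -0.17, -0.14 and -0.19. FOS, an immediate early gene that tissue digestion is known to induce, had 5115 CPM in low fibroblasts and 6259 CPM in the others.

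Levels of several genes followed the number of PTX3 and CCL26 transcripts in steps. The 555 deep fibroblasts were divided by that number into 0, 1, 2 to 4, 5 to 9 and 10 or more, with 142, 53, 87, 77 and 196 cells. Mean FBN1 per cell of 5000 UMIs was 21.5, 16.3, 14.8, 10.7 and 9.20 UMIs in this order. IGFBP5 gave 14.2, 8.87, 8.36, 4.95 and 3.14 UMIs. PTGDS gave 7.61, 12.6, 17.0, 22.5 and 28.4 UMIs. The first pair of genes was thus highest in the cells with the fewest PTX3 and CCL26 transcripts, and PTGDS was lowest there. SEMA3C, the transcription factor EBF1 and the secreted protease HTRA3 moved as FBN1 did, and MGP (matrix Gla protein, an inhibitor of calcification), DCN, IGF2 and KERA as PTGDS did. PI16 had means near 7 UMIs in the first 4 classes (6.62 to 7.12) and 4.74 UMIs in the last. CHRDL1 differed little, with means between 4.01 and 4.87 UMIs. These genes were picked for display after their values were seen, and median depth before thinning lay between 10832 UMIs in the class with 0 and 12888 in the class with 10 or more.

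**Figure D3:**
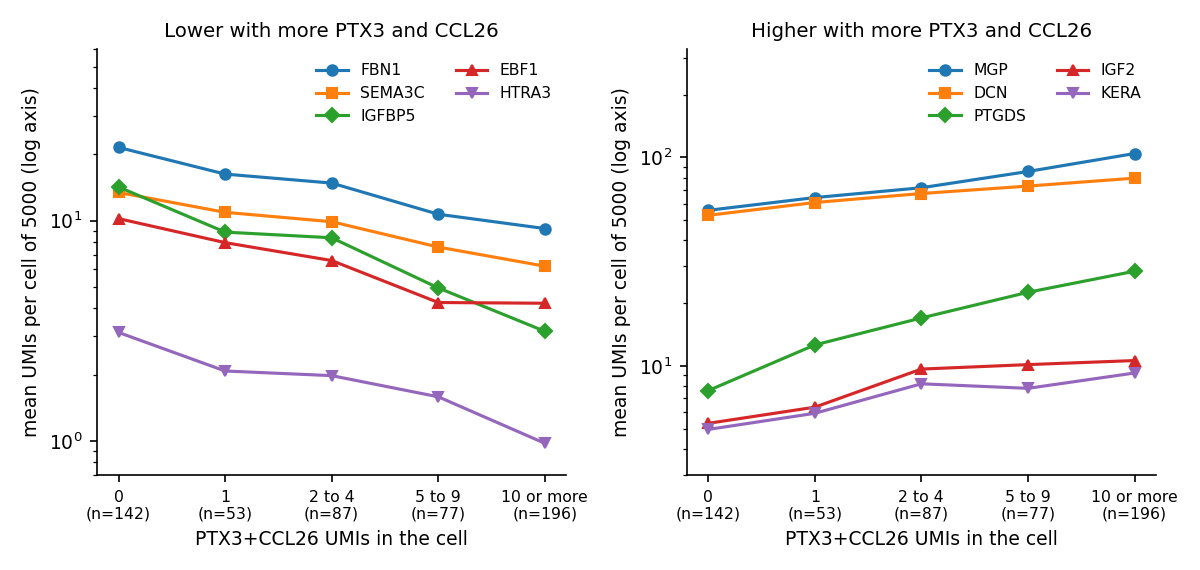
Mean UMIs per cell thinned to 5000 UMIs (y, log axis) in 555 artery fibroblasts grouped by their PTX3+CCL26 UMIs (x, number of cells in brackets). FBN1 runs between 21.5 and 9.20 UMIs and PTGDS between 7.61 and 28.4 UMIs over the same classes.

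Within the low fibroblasts, FBN1 and PTGDS set apart cells of different make-up. Over the 195 deep low fibroblasts, FBN1 had a lowest value of 0, a median of 16 and a highest value of 118 UMIs, against 0, 9 and 74 UMIs in 360 cells with PTX3 and CCL26. PTGDS had values of 0, 4 and 79 UMIs in low fibroblasts, against 0, 21.5 and 121 UMIs in the others. The ranges overlapped throughout. FBN1 was at least 2 times PTGDS in 117 of 195 low fibroblasts (60%, 52.8 to 66.9), against 71 of 360 others (19.7%, 15.7 to 24.2). PTGDS was at least 2 times FBN1 in 31 low fibroblasts (15.9%, 11.1 to 21.8), against 200 others (55.6%, 50.3 to 60.8). Cells between the limits made 24.1% of low fibroblasts and 24.7% of the others. The pair was chosen after the values were seen, both limits are ranges and not types, and UMI counts were compared as they are, without scaling by gene length.

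**Figure D4:**
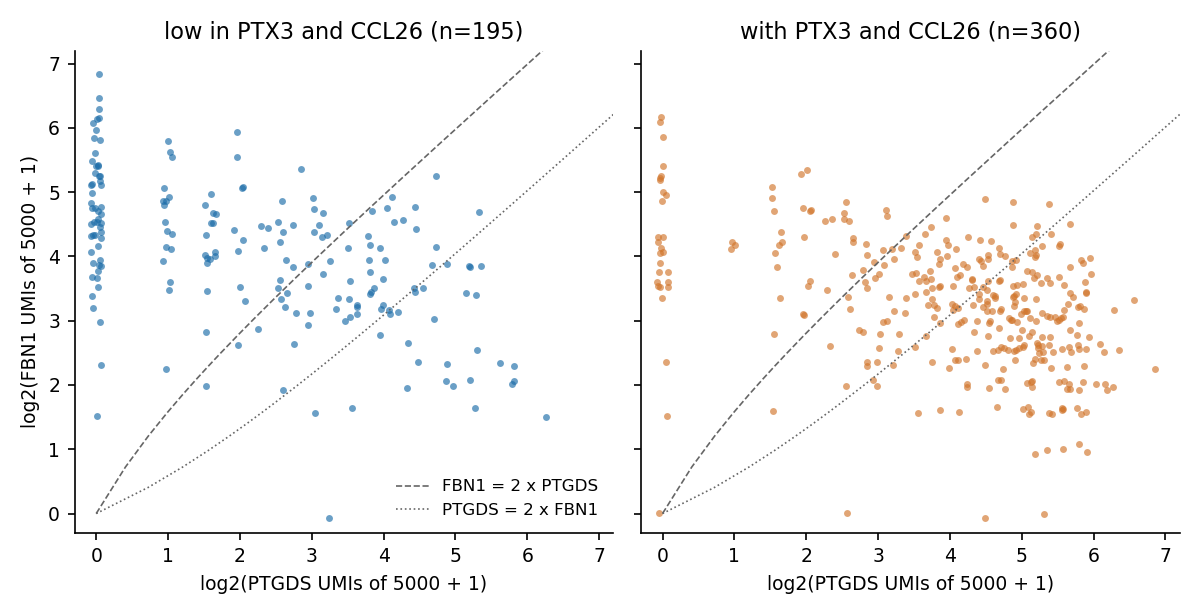
Each point is 1 artery fibroblast thinned to 5000 UMIs, with log2(PTGDS UMIs + 1) on x and log2(FBN1 UMIs + 1) on y and a small random shift. Cells above the dashed line have at least 2 times as many FBN1 as PTGDS UMIs (117 of 195 low cells, 71 of 360 others) and cells below the dotted line the reverse.

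FBN1-rich and PTGDS-rich low fibroblasts differed in further genes, which were picked after their values were seen. IGFBP5 averaged 17.8 UMIs in the 117 FBN1-rich and 2.26 UMIs in the 31 PTGDS-rich low cells. SEMA3C averaged 15.8 UMIs in FBN1-rich and 3.71 UMIs in PTGDS-rich low cells, CLEC3B 36.8 and 11.3 UMIs, and PI16 8.26 and 2.90 UMIs. ADAMTS5, an aggrecan-cleaving protease, was detected in 75.2% of FBN1-rich and 16.1% of PTGDS-rich low cells. ECM1 was detected in 32.5% of FBN1-rich and 6.45% of PTGDS-rich low cells. KERA was less tied to the pair, with 4.78 UMIs in FBN1-rich and 6.32 UMIs in PTGDS-rich low cells.

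PTGDS-rich low cells held more MGP, at 81.5 UMIs, against 47.8 UMIs in FBN1-rich low cells. BMPER, a secreted regulator of BMP signals, averaged 2.32 UMIs in PTGDS-rich and 0.188 UMIs in FBN1-rich low cells. It is also an endothelial gene here, at 1681 CPM in endothelial cells and 131 CPM in low fibroblasts. C2 was detected in 48.4% of PTGDS-rich and 10.3% of FBN1-rich low cells. SMOC1 was detected in 29.0% of PTGDS-rich and 1.71% of FBN1-rich low cells. Fibroblasts with PTX3 and CCL26 showed the same order on each side of the pair: IGFBP5 averaged 12.6 UMIs in their 71 FBN1-rich and 2.03 UMIs in their 200 PTGDS-rich cells, and PI16 8.38 and 4.14 UMIs.

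The cells with PTX3 and those with CCL26 overlapped only in part. Over all 850 fibroblasts, 78 had at least 1 UMI of both, 74 of PTX3 alone, 403 of CCL26 alone and 295 of neither. Whether this overlap differs from that of unrelated genes, and the part of depth in it, was not tested. In deep cells thinned to 5000 UMIs, 252 had 2 or more UMIs of CCL26 and fewer than 2 of PTX3, and 68.7% of these were PTGDS-rich and 10.3% FBN1-rich. Another 20 had 2 or more UMIs of PTX3 and fewer than 2 of CCL26, and 70% of these were FBN1-rich and 10% PTGDS-rich. The 273 cells with fewer than 2 UMIs of each were 53.5% FBN1-rich and 19.0% PTGDS-rich. On this pair of genes the 20 cells with PTX3 lay nearer to cells low in both than to cells with CCL26. The group of 20 is small, and its difference was not tested.

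Some marker genes varied together among the low fibroblasts and others did not. Pearson's r of log2(UMIs + 1) over the 195 deep low cells, which share 1 library and 1 depth, was 0.48 for PI16 and SFRP4 and 0.05 for SFRP2 and SFRP4, both pairs of the rule. It was 0.11 for PI16 and KERA and 0.07 for KERA and CHRDL1. FBN1 had r of 0.60 with FSTL1, 0.58 with SEMA3C, 0.56 with IGFBP5 and -0.52 with PTGDS. Most like PI16 were TNXB (tenascin-X, r = 0.56), SEMA3C (0.49) and SFRP4 (0.48), among 3915 genes ranked, and least like it was BMPER (-0.42). Most like SFRP4 were IGFBP6 (0.50), CST3 (0.49) and PI16 (0.48). Most like CHRDL1 were MAP1A (0.34) and PDZRN4 (0.33), and for KERA no gene exceeded 0.26 (ACVRL1). Over all 411 cells thinned to 1000 UMIs the highest r for PI16 was 0.28, with FBN1.

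Some genes were concentrated in few low fibroblasts. Among 3046 genes with at least 0.05 UMIs per cell thinned to 1000 UMIs, variance beyond counting, divided by the squared mean, had a median of 0.470. DPT stood at 15.8 on this scale, with 155 thinned UMIs in 67 cells and 21 UMIs in 1 cell. HAS1, a hyaluronan synthase, stood at 12.6 in 18 cells and CCL2, a monocyte chemokine, at 19.4 in 16 cells. ABCA1, a cholesterol exporter, stood at 15.4 in 26 cells. The lymphocyte genes XCL1 and CTSW were among the most uneven, with 24 thinned UMIs in 13 cells and 21 in 14 cells, and so was KCNB2, a potassium channel, with 27 in 9 cells. Before thinning, 3 cells held 75.9% of the 79 XCL1 UMIs of low fibroblasts. The other 8 of the 15 most uneven genes were GALNT15, NPAS3, RYR2, A2M, CXCL10, NHSL2, PALMD and NDST4, each in 16 to 30 cells. Interferon-induced CXCL10 thus appeared in 16 of 411 thinned cells.

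Set against all other passing barcodes of the artery, the low fibroblasts were led by matrix proteases and growth factor binders. Of 10287 genes, 907 were at least 2-fold higher (8.82%), a count that the choice of cells by fibroblast genes largely fixes and that supports nothing. IGFBP5 had 2638 CPM in low fibroblasts and 174 CPM in the other barcodes, a ratio of 15.1 (14.6 to 15.7). HTRA3 had 555 CPM in low fibroblasts and 46.9 CPM in the rest, ADAMTS5 382 and 32.2 CPM, and CD248 (endosialin, a stromal cell glycoprotein) 302 and 29.7 CPM. SEMA3C had 2442 CPM in low fibroblasts and 256 CPM in the rest, and EBF1 1742 and 206 CPM. The rest of the 12 highest were ADAMTS19, SYT9, ADAMTS16, ALOX15, MMP16 and ADAMTSL1, with ratios between 9.49 for ADAMTSL1 and 21.1 for ADAMTS16. The other barcodes include the fibroblasts with PTX3 and CCL26, which held 5547 of their 6465 UMIs of IGFBP5.

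The same rule in the graft found 52 fibroblasts among 924 passing barcodes (5.63%, 4.23 to 7.31), of which 50 were low in PTX3 and CCL26. CCL26 gave 1 UMI in these 50 cells and PTX3 gave 5. The graft cells were deeper, with a median of 19746 UMIs (4868 to 154917), and 1 barcode held 11.9% of their 1297536 UMIs. When thinned to 1000 UMIs, 24.0% of the 50 cells had at least 3 of the 6 markers, against 72.7% of low artery fibroblasts. The rule uses 4 of the 6 at full depth and asks more of shallow cells, so the gap over all 6 is no independent evidence. KERA and CHRDL1, outside the rule, were detected in 6% and 8% of thinned graft fibroblasts. In low artery fibroblasts these shares were 40.6% and 39.4%. The part of the rule and of depth in these gaps was not tested. The cell types that the labels list for the graft do not include fibroblasts, so the name here rests on the marker rule, and DCN stood at 4996 CPM and COL1A2 at 8859 CPM in these cells. With 1 library of each tissue, differences of tissue, library and depth cannot be told apart.

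Low artery fibroblasts differed from these graft cells in many more genes than from their neighbours in the artery. Of 9687 genes tested, 1160 were at least 2-fold higher in the artery cells (12.0%) and 682 at least 2-fold lower (7.04%), around a median log2 ratio of 0.14. Matrix metalloproteinases were 4 of the 6 lowest named genes. MMP13, a collagenase, on the identifier ENSOARG00020029769, gave 0 UMIs in low artery fibroblasts and 6987 UMIs (5385 CPM) in graft fibroblasts. Against a floor of 3 counts in the artery group MMP13 was 4833-fold lower, and the exact 95% interval starts at 3930-fold. The symbol MMP13 is also on a second identifier, with 33 UMIs in low artery fibroblasts and 3 in graft fibroblasts. MMP1, MMP3 and MMP12 also gave 0 UMIs in low artery fibroblasts, against 1210, 521 and 1000 UMIs in graft fibroblasts. The graft MMP13 came from 21 of 50 cells, and 3 cells held 43.0% of it.

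POSTN (periostin, a matricellular protein of remodelling tissue) was at 25.3 CPM in low artery fibroblasts and 4028 CPM in graft fibroblasts, 159-fold lower (126 to 206). A single artery cell held 56 of the 68 UMIs, and 41 of 50 graft cells held some. POSTN was also at 3767 CPM in native smooth muscle cells. ROBO1, a receptor of SLIT guidance cues, was 114-fold lower, with 6.31 CPM in low artery fibroblasts and 717 CPM in graft fibroblasts. CXCL6, a neutrophil chemokine, gave 1 UMI in low artery fibroblasts and 355 in graft fibroblasts, and the glutamate receptor gene GRM8 gave 2 and 358 UMIs. CHI3L1, a chitinase-like protein, and EDIL3, an integrin ligand, gave 7 and 11 UMIs in low artery fibroblasts, against 358 and 423 UMIs in graft fibroblasts. SPP1 and TREM2, both abundant in macrophages, gave 0 UMIs in low artery fibroblasts, against 593 and 211 UMIs in graft fibroblasts. In the graft, 3 cells held 78.6% of the SPP1 and 50.2% of the TREM2 UMIs. The 9 macrophage markers summed to 335 CPM in low artery fibroblasts and 122 CPM in graft fibroblasts, and their part in the SPP1 and TREM2 values was not tested.

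On the higher side stood growth factor and adhesion genes. IGF2 had 1024 CPM in low artery fibroblasts and 55.5 CPM in graft fibroblasts, 18.5-fold higher (14.6 to 23.7). In artery endothelial cells IGF2 stood at 773 CPM. IGFBP3 had 128 CPM in low artery fibroblasts and 2.31 CPM in graft fibroblasts. It is also an endothelial gene in the artery, at 558 CPM in endothelial cells. ITGBL1, an integrin beta-like protein, was 24.5-fold higher, with 737 CPM in low artery fibroblasts and 30.1 CPM in graft fibroblasts. ADAMTSL3 had 1332 CPM in low artery fibroblasts and 62.4 CPM in graft fibroblasts. ALDH1A1, which makes retinoic acid, had 312 CPM in low artery fibroblasts and 14.6 CPM in graft fibroblasts. ZBTB16, a transcription factor that glucocorticoids induce, had 228 CPM in low artery fibroblasts and 10.0 CPM in graft fibroblasts. HHIP, an inhibitor of hedgehog ligands, had 106 CPM in low artery fibroblasts and 3.08 CPM in graft fibroblasts, and NTRK3, a neurotrophin receptor, 97.3 and 2.31 CPM. CPE, MDGA2, NEGR1 and TNFSF15 completed the 12, with ratios between 21.4 for NEGR1 and 61.0 for TNFSF15, the last resting on 2 graft UMIs (16.7 to 506). In deep cells thinned to 5000 UMIs the ratio was 9.72 for TNFSF15, 11.3 for ITGBL1, 9.93 for ADAMTSL3, 11.9 for IGF2, 11.2 for MDGA2, 9.17 for ALDH1A1, 26.3 for IGFBP3 and 23.1 for NTRK3.

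Lists of matrix and signalling genes are given beside all genes tested, of which 12.0% were higher and 7.04% lower in low artery fibroblasts. Of 12 universal adventitial genes, 8 were higher in low artery fibroblasts and 0 lower, among them PCOLCE2 (1562 CPM, against 229 CPM in graft fibroblasts) and CD34 (318 and 60.1 CPM). PI16 and MFAP5, both among the 8 higher, belong to the rule. DPT went the other way, at 346 CPM in low artery fibroblasts and 693 CPM in graft fibroblasts. Of 15 WNT pathway genes, 10 were higher in low artery fibroblasts and 0 lower, with a median log2 ratio of 1.68 beside 0.14 over all genes. WNT5A had 70.2 CPM in low artery fibroblasts and 7.71 CPM in graft fibroblasts, and RSPO3, which strengthens WNT signals, had 89.5 and 16.2 CPM. SFRP2 and SFRP4 of this list belong to the rule, and WNT2 and NKD1 of the list, like CD248 of the adventitial list, turned to lower in low artery fibroblasts when all cells were thinned to 1000 UMIs. Of 17 elastic fibre genes 9 were higher, the rule gene MFAP5 among them, and 3 lower. ELN (elastin) had 533 CPM in low artery fibroblasts and 152 CPM in graft fibroblasts, MFAP4 374 and 50.9 CPM, and LTBP1, which holds latent TGF-beta, 394 and 1674 CPM. ELN stood higher in artery endothelial cells (2409 CPM) and artery smooth muscle cells (2797 CPM). The part of their RNA in the fibroblast value was not tested. Small leucine-rich proteoglycans split 6 to 3 of 10, with KERA at 976 CPM in low artery fibroblasts and 83.2 CPM in graft fibroblasts but BGN (biglycan) at 532 and 1995 CPM.

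Contractile, collagen and protease lists leaned to the graft, beside 12.0% of all genes higher and 7.04% lower in low artery fibroblasts. Of 11 contractile and myofibroblast genes, 0 were higher and 8 lower in low artery fibroblasts, with a median of -1.46. Markers of smooth muscle cells and pericytes lay the same way, with 0 higher and 4 lower of 6 tested, among them NOTCH3, and a sum over 12 genes of 196 CPM in low artery fibroblasts and 460.1 CPM in graft fibroblasts. Their part in the contractile list was not tested. ACTA2 had 4.83 CPM in low artery fibroblasts and 74.0 CPM in graft fibroblasts, and TPM2 (beta-tropomyosin) 6.68 and 103 CPM. ACTA2, which is in both lists, is a smooth muscle marker of the rule, and the rule limited it in both groups. The collagens gave 2 higher, near the share over all genes, and 5 lower of 15. COL14A1 had 1362.5 CPM in low artery fibroblasts and 607 CPM in graft fibroblasts, and COL5A3 17.8 and 656 CPM. Of 20 proteases and inhibitors, 3 were higher, the rule gene SERPINF1 among them, and 9 lower. TIMP1, an inhibitor of metalloproteinases, had 338 CPM in low artery fibroblasts and 5823 CPM in graft fibroblasts, while TIMP3, bound to matrix, had 2968 and 1302.5 CPM. FN1 (fibronectin) had 1542 CPM in low artery fibroblasts and 8621 CPM in graft fibroblasts. FN1 stood at 3869 CPM in artery endothelial cells.

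Growth factor, transcription and clock genes also differed between the groups, beside 12.0% of all genes higher and 7.04% lower in low artery fibroblasts. GREM1, a BMP antagonist, had 140.4 CPM in low artery fibroblasts and 10.0 CPM in graft fibroblasts, and INHBA, a subunit of activin A, had 12.998 and 311 CPM. In the BMP and TGF-beta list, 8 of 22 genes were higher in low artery fibroblasts and 3 lower. Among the 8, TGFBR2 and TGFBR3 turned to lower in low artery fibroblasts with all cells thinned to 1000 UMIs. Of 19 steroid, clock and quiescence genes, 10 were higher and 1 lower, including TXNIP (493 CPM in low artery fibroblasts and 98.6 CPM in graft fibroblasts) and CDKN1C, an inhibitor of the cell cycle (347 and 109 CPM). Of 31 fibroblast transcription factors, 9 were higher in low artery fibroblasts, among them ZBTB16, NFIA and NFIB, and 5 lower. RUNX1 and NFATC2, among the lower, had 115 and 37.1 CPM in low artery fibroblasts, against 615 and 740 CPM in graft fibroblasts. In 195 low artery and 48 graft fibroblasts of at least 5000 UMIs thinned to 5000, 13.9% of 6151 tested genes were called higher and 6.37% lower. In these cells the universal adventitial list gave 5 higher and 0 lower of 11, the WNT list 7 and 0 of 13, the contractile list 0 and 6 of 10 and the protease list 1 and 8 of 16. Genes of the rule were among the higher calls, with PI16 in the adventitial list and SFRP2 and SFRP4 in the WNT list. The 1 higher call of the protease list was the rule gene SERPINF1.

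**Figure D5:**
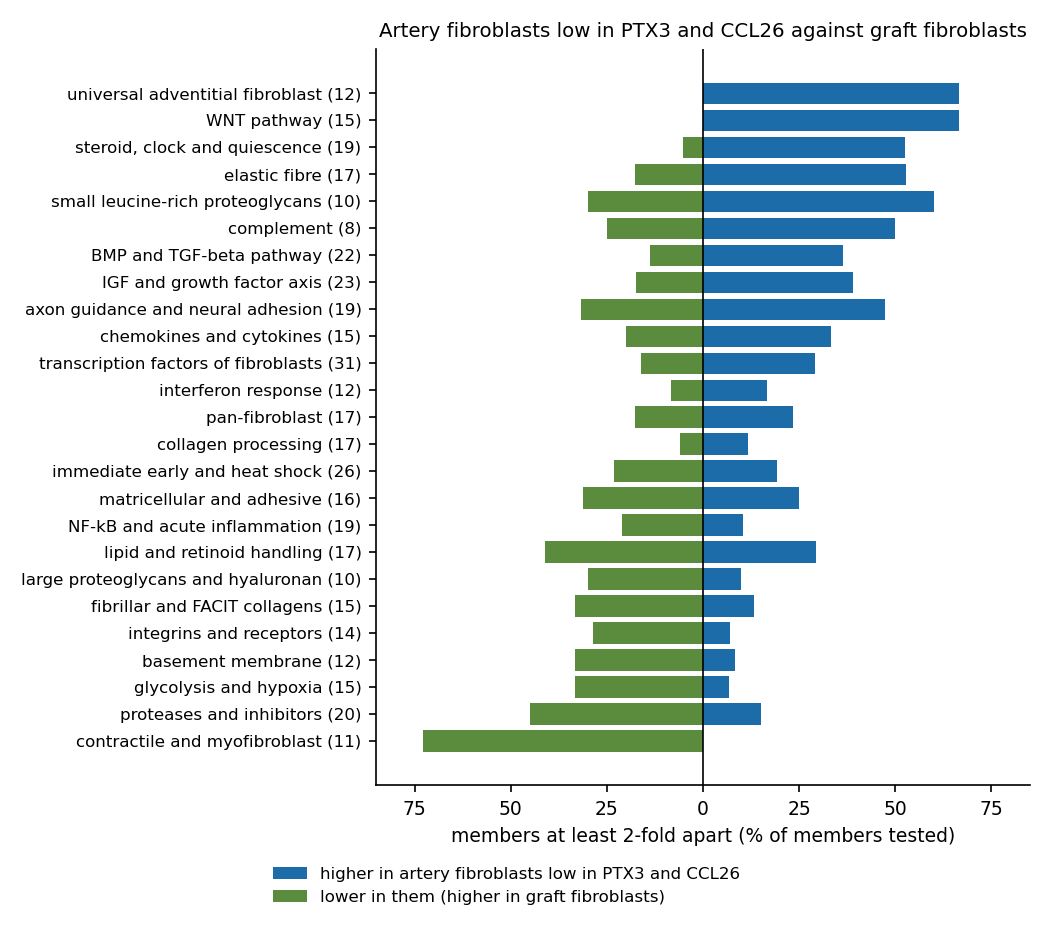
Percentage of tested members (number in brackets) of each gene list that were at least 2-fold higher (right) or lower (left) in artery fibroblasts low in PTX3 and CCL26 than in 50 graft fibroblasts of the same rule. The universal adventitial and WNT lists have 8 of 12 and 10 of 15 members on the right and 0 on the left, and the contractile list has 8 of 11 on the left. Genes of the rule are among these members: PI16 and MFAP5 (adventitial), SFRP2 and SFRP4 (WNT) and ACTA2 (contractile). Over all genes tested, 12.0% were higher and 7.04% lower.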

How the data were processed

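The deposited matrices held UMI counts per gene and barcode, whole numbers from Cell Ranger 7.2.0, per the submitters' processing notes, which list Seurat 5.0.0, R 4.3.3 and bcl2fastq 2.20.0.422 as further tools. They are not normalized, per the file headers and values, and the genome build is not given in the sources used here. Of 21890 genes, 6435 had no symbol and 20 symbols stood on more than 1 identifier. Sets of transcripts were compared as counts summed per group and scaled to CPM, with Poisson intervals for levels, conditional binomial intervals for ratios and Clopper-Pearson intervals for shares, all exact at 95% and for counting error only. Genes needed 30 UMIs over both groups and 10 CPM in one, and a call was a 2-fold ratio after adding 5 CPM. With 1 library per tissue there was no test between groups.

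Named genes were the 12 highest and 12 lowest log2 ratios with a symbol, at least 50 CPM and 30 UMIs in the higher group, without mitochondrial, ribosomal protein, haemoglobin, immunoglobulin and rule genes and without genes whose level there was below that in other native barcodes divided by 4. To these were added, of each list, the 4 most abundant members and those 2-fold apart. The pair FBN1 and PTGDS and the other genes of that display were chosen after their values were seen. Members and lists were chosen with earlier results of these data known. No doublet caller was run, and leaving out the 8% deepest cells was an alternative. The marker rule removes only barcodes whose fibroblast sum is below 2 times another sum. That sum reached 402 UMIs in low fibroblasts, so a barcode with many transcripts of another cell type could pass. The T or NK list summed to 15.1 CPM in low fibroblasts of 5000 to 10000 UMIs and 101 CPM in deeper ones. Whether mixed barcodes gave this was not tested. Thinning used seed 11. The calculations were tested on simulated data and run in Python 3.11.15 with numpy 2.4.6, scipy 1.17.1, pandas 2.3.3 and matplotlib 3.10.9.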

Additional observations from a re-analysis of the deposited data

How the results depend on the processing

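The number of low fibroblasts was 211 with only barcodes of at least 3000 UMIs and 702 when the split was made after thinning to 1000 UMIs, against 411. Counts of genes higher and lower in low fibroblasts than in those with PTX3 and CCL26 (76 and 37) were 119 and 85 with cells thinned to 1000 UMIs, 253 and 70 with equal weight for each cell, and 156 and 66 with 1 CPM added. The count lower was 56 with members at 0 UMIs, 24 with the split after thinning, and 56 in cells of at least 5000 UMIs thinned to 5000. Against graft fibroblasts the counts (1160 and 682) were 566 and 278 with thinning to 1000 UMIs, and the count lower was 392 in cells thinned to 5000. The cause was not tested.

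Many single ratios moved beyond their 95% counting interval: between low and other artery fibroblasts 109 of 147 with thinning to 1000 UMIs, 92 with equal weight for each cell and 57 in cells thinned to 5000, and against graft fibroblasts 188, 188 and 165 of 276. Between artery fibroblasts 2 turned sign, CD74 to -0.0455 and CLDN5 to -0.0596 in cells thinned to 5000. Against graft fibroblasts, thinning to 1000 UMIs turned the log2 ratios of TGFBR3 to -0.33, FABP3 to 0.57, WNT2 to -0.90, CTNND2 to -0.88, NKD1 to -0.18, MEOX1 to 1.56, TGFBR2 to -0.37, LDHA to 0.41 and CD248 to -0.15, and the median of the tendon, cartilage and bone list to 0.84. Thinning to 5000 turned PTX3 to -0.0139 and CLEC14A to -0.61. All 13 counts against other artery barcodes stayed within 1.5 times. No library could be left out, since each tissue has 1. No paired analysis was possible because each group comes from 1 library.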

Other observations

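Lists not described above gave few calls between low fibroblasts and those with PTX3 and CCL26, as did all genes tested (0.802% higher, 0.391% lower). Of 18 axon guidance and neural adhesion genes tested, SEMA3D and NTN4 were at least 2-fold higher and 0 lower. SEMA3D, a secreted semaphorin, had 110 CPM in low fibroblasts and 52.3 CPM in the others. Of 17 collagen processing genes, LOXL1, which links elastin, was the 1 called higher, at 53.1 CPM in low fibroblasts and 23.0 CPM in the others, and it stood at 185 CPM in smooth muscle cells. The fibroblast transcription factors (30 tested) and the steroid, clock and quiescence genes (19 tested) gave 0 calls, with EBF1 at 1742 CPM in low fibroblasts and 1003 CPM in the others. In deep cells thinned to 5000 UMIs, EBF1 and GLI2 were called higher among 28 such factors. The contractile list (9 tested) also gave 0 calls.

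The 13 measured cell cycle genes summed to 104 CPM in low fibroblasts, against 102 CPM in fibroblasts with PTX3 and CCL26. The 8 adipocyte markers summed to 28 UMIs (10.4 CPM) in low fibroblasts, with PLIN1 and PLIN4 at 0. The 11 mesothelial and lymphatic markers summed to 47 UMIs (17.5 CPM), with UPK3B, LRRN4, KRT8, FLT4 and CCL21 at 0. A floor of 3 counts over the group puts a gene at 0 under 1.11 CPM.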
